A study of Homo sapiens with 4 samples.

Results

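The genes described here encode 10 proteins of the intermediate filament superfamily, taken by gene symbol from the 25283 rows of the deposited table. They are vimentin (VIM), the filament of mesenchymal cells; keratins 8, 18 and 19 (KRT8, KRT18 and KRT19), the filaments of simple epithelia; nestin (NES) and the light and medium neurofilament chains (NEFL and NEFM), the neural filaments; and lamins A/C, B1 and B2 (LMNA, LMNB1 and LMNB2), the filaments under the nuclear envelope. All 10 were present in the table. The 4 classes hold 1 mesenchymal gene, 3 epithelial keratins, 3 neural genes and 3 nuclear lamins.

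RNA came from cells labelled as neurons. They had been made from the established line H1, which is a line of human embryonic stem cells, by way of neural progenitors and a maturation medium. One group of 2 libraries, U1_OE, carried a lentiviral vector for overexpression of U1 snRNA, the RNA that recognises 5′ splice sites. The other group of 2 libraries, the control, is described as carrying an empty vector, while its sample titles read WT-1 and WT-2. The vector had been on the cells for 36 hours in both groups. The treatment text of the control samples also names the overexpression vector, and the groups used here are those of the genotype labels and sample titles. Whether the libraries were made from separate cultures is not stated, and every p-value therefore measures the spread between these libraries, which may be technical. U1 snRNA itself was not analysed here, so its overexpression was not checked.

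Intermediate filaments are built from rod-shaped coiled-coil proteins that pair, pack into ropes and link organelles, nucleus and cell junctions. Which filament a cell makes is a classical sign of its lineage: keratins are made in epithelia as obligate pairs of an acidic and a basic chain, vimentin in mesenchymal cells and many cultured cells, nestin in neural progenitors and activated or dividing cells, and neurofilaments in maturing neurons. Lamins form a meshwork inside the nuclear envelope, where A-type lamins are high in stiff and mesenchymal tissues and B-type lamins are made in nearly all cells.

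The libraries held 16713505 and 19057423 estimated counts in U1_OE and 17061796 and 17636307 in control. The labelled cell type was set against marker lists. Of 22 mesenchymal markers, 21 were above 10 CPM (counts scaled for library size with TMM factors) in every library, whereas 4 of the 17 pan-neuronal markers in the table were. The neuronal marker DCX was at 0 in U1_OE replicate 1 and in control replicate 1, and STMN2 was at 0 in control replicate 2. These were the only 2 of the 17 with a 0 in any library, and 12 of the 17 had at least 1 CPM in every library. The summed level of the 17 was 1268 and 1557 CPM in U1_OE, against 1438 and 993 CPM in control. The median level of the mesenchymal markers was 576 and 361 CPM in U1_OE, against 311 and 412 CPM in control, and that of the pan-neuronal markers was 3.66 and 4.85 CPM in U1_OE, against 4.94 and 2.92 CPM in control. The cells are therefore called by their labels only, and in bulk RNA fewer cells of a type and less RNA per cell cannot be told apart.

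By level per kilobase of annotated exon, averaged over the 4 libraries, vimentin led the 10 genes. Lamin A/C, KRT18 and KRT8 followed, and NEFL and NEFM were lowest. The order of lamin A/C and KRT18 did not hold in every library: in U1_OE replicate 2 KRT18 had 140 CPM per kb and LMNA 107. The comparison of U1_OE with control called none of the 10 genes. In the quasi-likelihood test of edgeR, with an adjusted p under 0.05 as the threshold, 0 of the 9 genes that could be tested passed, on a background of 0% of 17317 tested genes. DESeq2 called 0 of the 9 members to which it gave an adjusted p, on a background of 0.614% of genes called higher and 0.47% called lower. At an unadjusted edgeR p under 0.05, 3 members were higher in U1_OE (NES, LMNA and KRT18) and 0 were lower, on a background of 4.36% of all tested genes higher and 4.72% lower. NEFM had too few counts for the edgeR test.

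Before any test, the libraries themselves separated for most of the genes. In 6 of the 9 tested members, VIM, NES, KRT8, KRT18, LMNA and LMNB2, both U1_OE libraries lay above both control libraries, and in 0 of them did both lie below. Among all tested genes 19.7% were placed above and 22.1% below. The 6 genes had a positive log2 fold change and the other 3 (KRT19, LMNB1 and NEFL) a negative one. The median log2 fold change was 0.40 over the 9 members and -0.01 over all tested genes, of which 49.3% were positive. The members were chosen with earlier results of these data known, and 9 genes are not replicates. The count of 6 and the median therefore describe these genes and test nothing.

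**Figure D1:**
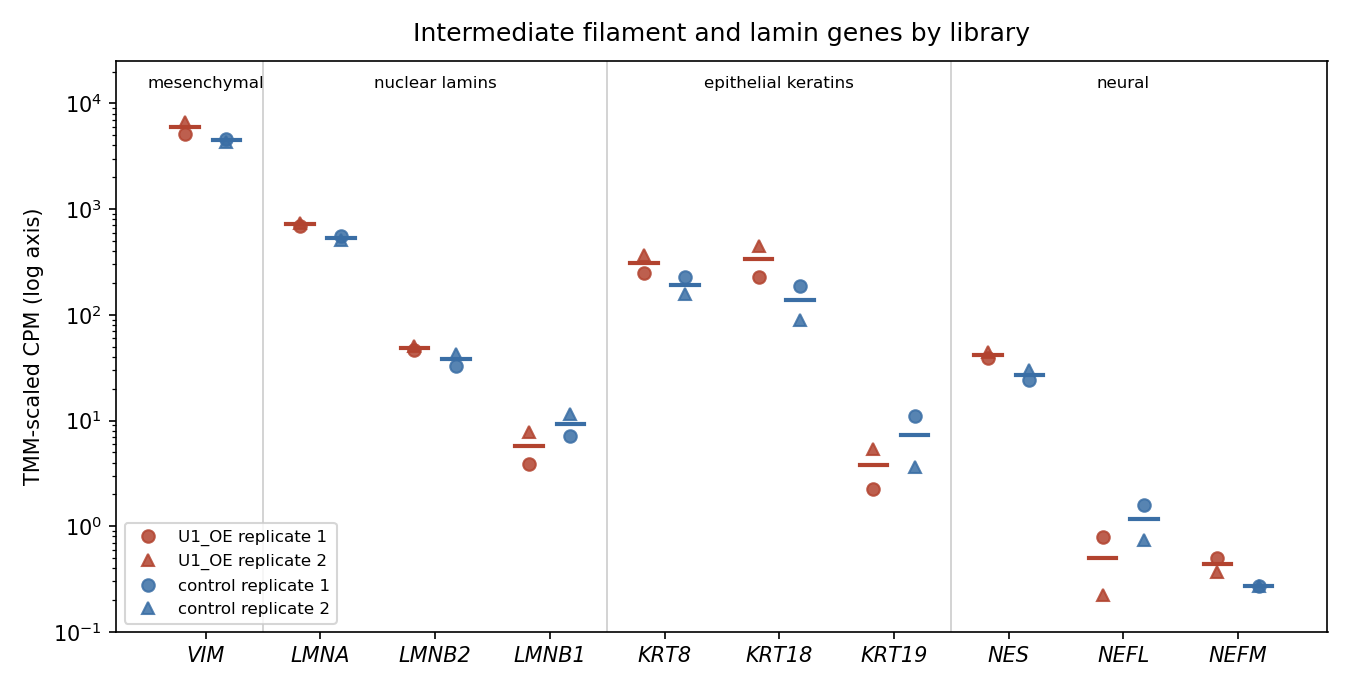
Level of each of the 10 genes in every library, in TMM-scaled CPM on a log axis, with U1_OE left of control for each gene. Points are libraries and short lines are group means of 2 libraries. VIM lies between 4352 and 6690 CPM, and NEFL and NEFM lie at or under 1.60 CPM.

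Vimentin, the main filament of mesenchymal cells, was the most abundant of the 10 transcripts. It stood at 5164 and 6690 CPM in U1_OE, against 4639 and 4352 CPM in control. Both U1_OE libraries were above both control libraries, with U1_OE replicate 2 standing highest. The means were 5927 ± 1079 CPM in U1_OE and 4495 ± 203 CPM in control (SD, n = 2 each). The log2 fold change was 0.40 ± 0.17 (SE), with a 95% interval of -0.05 to 0.85, and did not pass (edgeR adjusted p = 0.574). Without U1_OE replicate 2 it was 0.20. VIM lies on chromosome 10 from 17228259 to 17237593 on the plus strand of GRCh38, and 2 antisense genes run across its exons. VIM-AS1 had 3.39 and 4.26 CPM in U1_OE, against 3.003 and 2.47 CPM in control, and ENSG00000234961 had 1.46 and 2.75 CPM in U1_OE, against 0.976 and 0.989 CPM in control. The labels state no step that marks the strand, so reads of VIM and of these genes cannot be told apart where they overlap.

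KRT18, the acidic partner of the simple epithelial pair, had the largest positive fold change among the tested members. Its values were 229 and 452 CPM in U1_OE, against 185 and 90.2 CPM in control. The groups did not overlap, but the libraries within each group lay farther apart than the nearest libraries of the 2 groups. The means were 340 ± 158 CPM in U1_OE and 138 ± 67.3 CPM in control (SD, n = 2 each), a log2 fold change of 1.31 ± 0.48 (SE) with a 95% interval of 0.08 to 2.53. It missed the threshold in edgeR (adjusted p = 0.534) and in DESeq2 (adjusted p = 0.0577). Leaving out control replicate 1 brought a DESeq2 log2 fold change of 1.93 with an adjusted p of 0.00138, so this gene was called in that setting and not with all 4 libraries. The edgeR log2 fold change was 0.73 without U1_OE replicate 2 and 0.88 without control replicate 2, and neither was called by edgeR or DESeq2.

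KRT8, the basic partner of KRT18, kept the same order of libraries. It measured 247 and 366 CPM in U1_OE, against 228 and 159 CPM in control. U1_OE replicate 1 and control replicate 1 were close, and the gap between groups came mainly from the second library of each. The means were 307 ± 83.9 CPM in U1_OE and 194 ± 49.2 CPM in control (SD, n = 2 each), and the log2 fold change was 0.66 ± 0.28 (SE), with a 95% interval of -0.05 to 1.38 (edgeR adjusted p = 0.565, DESeq2 adjusted p = 0.350). Without U1_OE replicate 1, DESeq2 gave 0.95 with an adjusted p of 0.0283, while edgeR gave 0.35 without U1_OE replicate 2 and 0.43 when control replicate 2 was dropped.

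KRT19, an acidic keratin of ductal and other simple epithelia, was far below the other two and had a negative fold change. It had 2.24 and 5.36 CPM in U1_OE, against 11.04 and 3.62 CPM in control. The groups overlapped, and control replicate 1 alone stood above the rest. The means were 3.80 ± 2.21 CPM in U1_OE and 7.33 ± 5.24 CPM in control (SD, n = 2 each). The log2 fold change of -0.95 ± 0.68 (SE), with a 95% interval of -2.71 to 0.81, did not pass (edgeR adjusted p = 0.722). Leaving out control replicate 1 turned it to 0.077.

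Set against each other within a library, the keratins gave 0.926 and 1.23 KRT18 CPM per KRT8 CPM in U1_OE, against 0.812 and 0.568 in control. KRT19 per KRT18 was 0.00978 and 0.0119 in U1_OE, against 0.0595 and 0.0402 in control. Both ratios separated the groups, KRT18 per KRT8 by a factor of 1.57 and KRT19 per KRT18 by a factor of 0.220. With 2 libraries against 2 a two-sided exact permutation test cannot go below p = 0.333, which is what each ratio gave. These ratios were chosen after the values of the genes had been seen.

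The coding sequences of KRT8 and KRT18 carry a limit of read assignment that those of the other members hardly have. Untranslated parts were not looked up, and overlaps on the chromosome are given with each gene. The coding sequences of the main transcripts were cut into all overlapping stretches of 50 bases and looked up in every other GENCODE v29 transcript. For KRT8, 48.3% of the stretches also occurred in other genes (36 genes, 33 of them processed pseudogenes), and for KRT18 38.7% did (43 genes, 40 of them processed pseudogenes). KRT19 shared 2.08% and NEFM 0.224%, and VIM, NES, NEFL, LMNA, LMNB1 and LMNB2 shared 0%. Of the genes sharing sequence with KRT8, TTBK2 and KRT80 were in the table, and of those sharing it with KRT18 0 were. TTBK2 had 3.07 and 1.97 CPM in U1_OE, against 3.05 and 3.14 CPM in control. The longest run that KRT18 shares with one of its pseudogenes on the X chromosome, KRT18P11, is shown to let this be seen: 86 bases, coding bases 882 to 967, identical in both, from GENCODE v29 transcripts on GRCh38, 5′ to 3′ on the strand of the gene.
KRT18 and KRT18P11: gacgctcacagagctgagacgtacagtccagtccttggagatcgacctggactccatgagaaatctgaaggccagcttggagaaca
A read that falls inside this run fits both genes equally. The counting of such reads is not described in the sources used here, so the levels of KRT8 and KRT18 are uncertain to that extent.

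The pair also overlaps on the chromosome. KRT8 (chromosome 12, 52897187 to 52949954, minus strand) and KRT18 (chromosome 12, 52948871 to 52952901, plus strand) run across each other for 1084 bases, of which 525 are exonic in both. Without strand information, reads from these bases cannot be assigned to one of them. KRT19 lies apart on chromosome 17 from 41523617 to 41528308 on the minus strand.

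Most of the epithelial markers listed were scarce in every library. Of 16 epithelial markers in the table, 1 was above 10 CPM in every library, and the markers' median level was 0.359 and 0.334 CPM in U1_OE, against 0.606 and 0.382 CPM in control. E-cadherin (CDH1), the adhesion protein of epithelial junctions, had 0.379 and 0.686 CPM in U1_OE, against 0.842 and 0.195 CPM in control. EPCAM was at 0 in U1_OE replicate 1 and at most 0.155 CPM in the other libraries, and CLDN3, ESRP2 and ST14 were each at 0 in at least 1 library. The summed level of the epithelial list, 122 and 59.1 CPM in U1_OE, against 86.9 and 48.8 CPM in control, was mostly SPINT2, a protease inhibitor of epithelia, at 107 and 45.0 CPM in U1_OE, against 71.4 and 39.5 CPM in control. Of the 6 epithelial markers that were tested, 4 were above and 2 below 0 on the log2 scale, and 0 were called by edgeR or DESeq2. LAMB3, a laminin chain of epithelial basement membranes, was the 1 with an unadjusted edgeR p under 0.05. It had 7.98 and 6.90 CPM in U1_OE, against 3.73 and 1.02 CPM in control, and its groups did not overlap (log2 fold change 1.67 ± 0.62, edgeR adjusted p = 0.539). Some desmosome genes, counted further on with the filament linkers, were not scarce. DSP had 32.5 and 43.6 CPM in U1_OE, against 47.9 and 22.6 CPM in control. DSG2 had 27.9 and 36.1 CPM in U1_OE, against 41.8 and 33.2 CPM in control. DSC3 had 22.4 and 19.9 CPM in U1_OE, against 24.2 and 12.5 CPM in control. PKP1, another desmosome gene, had 0.167 and 0.215 CPM in U1_OE, against 0 and 0 CPM in control. The part of epithelial cells in the keratin values was not tested.

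Lamin A/C, the A-type lamin that stiffens the nucleus, had the second highest mean level of the members. LMNA had 686 and 745 CPM in U1_OE, against 561 and 513 CPM in control. The libraries of each group were close to each other and the groups were apart. The means were 715 ± 41.7 CPM in U1_OE and 537 ± 33.8 CPM in control (SD, n = 2 each). The log2 fold change was 0.41 ± 0.13 (SE), the member estimate with the smallest error, with a 95% interval of 0.06 to 0.76 (edgeR adjusted p = 0.507, DESeq2 adjusted p = 0.249). With each library left out in turn it lay between 0.35 and 0.50.

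Lamin B2, one of the B-type lamins, which stay anchored in the membrane by a farnesyl group, was higher in both U1_OE libraries than in either control library by a narrower margin. LMNB2 had 46.0 and 50.6 CPM in U1_OE, against 32.9 and 42.7 CPM in control. Its log2 fold change was 0.35 ± 0.18 (SE), with a 95% interval of -0.10 to 0.81 (edgeR adjusted p = 0.623). Dropping control replicate 1 gave 0.20 and dropping control replicate 2 gave 0.56. LMNB2 shares 257 exonic bases with TIMM13 on the same strand, a mitochondrial import chaperone gene that had 49.7 and 63.4 CPM in U1_OE, against 54.9 and 46.7 CPM in control.

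Lamin B1, the other B-type lamin, was the rarest of the 3. LMNB1 had 3.87 and 7.73 CPM in U1_OE, against 7.14 and 11.4 CPM in control. The groups overlapped, with U1_OE replicate 2 above control replicate 1. The means were 5.80 ± 2.73 CPM in U1_OE and 9.28 ± 3.02 CPM in control (SD, n = 2 each), and the log2 fold change was -0.67 ± 0.43 (SE), with a 95% interval of -1.78 to 0.44 (edgeR adjusted p = 0.695). With each library left out in turn it lay between -1.26 (without U1_OE replicate 2) and -0.24 (without U1_OE replicate 1).

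LMNB1 is known to be lowered in senescent cells, and its library order was set beside a list of 22 proliferation genes. The order from high to low was control replicate 2, U1_OE replicate 2, control replicate 1 and U1_OE replicate 1, and 10 of the 22 genes, among them MKI67, TOP2A and CCNA2, had the same order. The share of all tested genes with this order was not counted, so the count of 10 has no background to be read against. The median of the list was 5.87 and 10.8 CPM in U1_OE, against 10.3 and 13.0 CPM in control. LMNB1 divided by that median was 0.659 and 0.717 in U1_OE, against 0.695 and 0.875 in control, and the groups overlapped. LMNB1 itself overlapped before the division too, so the overlap after it decides nothing. The list's part in the LMNB1 values was not tested. Log2 fold changes in it were positive for 2 genes and negative for 20, the median being -0.52, and 0 were called by edgeR or DESeq2. At an unadjusted edgeR p under 0.05, 0 of them were higher and 2 lower, CDK1 and HMGB2, against 4.36% and 4.72% of all tested genes. In 6 both U1_OE libraries lay below both control libraries and in 0 above, against 22.1% and 19.7% of all tested genes.

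Ratios of the lamins within a library were set side by side, chosen after the values had been seen. LMNA per LMNB1 was 177 and 96.3 in U1_OE, against 78.6 and 45.0 in control, a factor of 2.20 between groups (two-sided exact permutation p = 0.333, the smallest that 2 against 2 allows). LMNA per LMNB2 was 14.9 and 14.7 in U1_OE, against 17.1 and 12.02 in control, a factor of 1.03 (exact permutation p = 1). The U1_OE values of that second ratio lay inside the range of the control values. The summed lamin level was 736 and 803 CPM in U1_OE, against 601 and 568 CPM in control, nearly all of it LMNA.

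**Figure D2:**
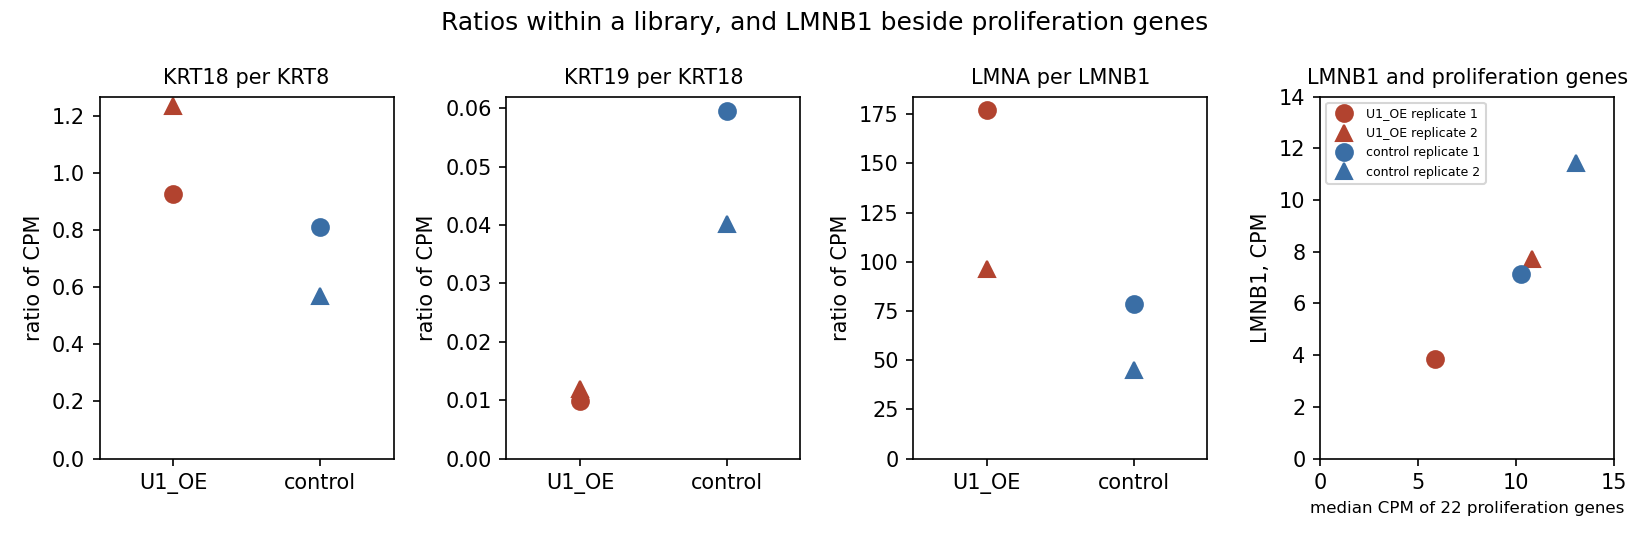
Ratios of CPM within each library for 3 pairs of genes, and LMNB1 in CPM plotted against the median CPM of 22 proliferation genes, with all axes starting at 0. Points are single libraries, U1_OE left of control in the ratio panels. LMNA per LMNB1 runs from 96.3 to 177 in U1_OE and from 45.0 to 78.6 in control, and LMNB1 and the proliferation median place the 4 libraries in the same order.

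Prelamin A and the B-type lamins share a processing signal at the end of their coding sequences, shown here because enzymes described further on act on it. The last 30 coding bases, stop codon included, are given 5′ to 3′ from GENCODE v29 transcripts on GRCh38, with the 4 codons of the CaaX box, the site to which the farnesyl group is added, in capitals.
LMNA, prelamin A form: cagagcccccagaacTGCAGCATCATGtaa
LMNB1: gcatccaatagaagcTGTGCAATTATGtaa
LMNB2: accacctcaagaggcTGCTACGTGATGtga
Only coding sequences that end in such a box were kept, so the ends shown could not differ in this, and other splice forms of LMNA are not shown. The table holds 1 value per gene, so the LMNA difference cannot be divided between the splice forms of the gene. LMNA lies on chromosome 1 from 156082573 to 156140089 (plus strand), LMNB1 on chromosome 5 from 126776623 to 126837020 (plus strand) and LMNB2 on chromosome 19 from 2427638 to 2456996 (minus strand).

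Nestin, the large filament protein of neural progenitors that copolymerises with vimentin, had the smallest unadjusted edgeR p of the members. NES had 39.3 and 44.5 CPM in U1_OE, against 24.3 and 30.0 CPM in control. Both U1_OE libraries were above both control libraries, and the gap exceeded the distance between the libraries of either group. The means were 41.9 ± 3.65 CPM in U1_OE and 27.1 ± 4.03 CPM in control (SD, n = 2 each), and the log2 fold change was 0.63 ± 0.17 (SE), with a 95% interval of 0.19 to 1.06 (edgeR unadjusted p = 0.0141, adjusted p = 0.462, DESeq2 adjusted p = 0.364). Leaving out each library in turn gave 0.51 to 0.79. Measured against vimentin, NES was 7.62 and 6.65 per 1000 VIM CPM in U1_OE, against 5.23 and 6.89 in control, and here the groups overlapped. Of 11 neural progenitor markers in the table, 3 had at least 1 CPM and 1 was above 10 CPM in every library. SOX3 and FABP7 were each at 0 in at least 1 library, and they were the only 2 of the list that were. Of the 6 progenitor markers tested, 3 were above and 3 below 0 on the log2 scale (median -0.28). In 1 both U1_OE libraries lay above both control libraries and in 3 below, against 19.7% and 22.1% of all tested genes.

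The neurofilaments, the filaments that fill mature axons, were close to the limit of counting. NEFL, the light chain on which the others assemble, had 12.7 and 4.22 estimated counts in U1_OE, against 27.2 and 13.4 in control, or 0.784 and 0.221 CPM in U1_OE, against 1.60 and 0.739 CPM in control. The groups overlapped. The log2 fold change of -1.19 ± 0.92 (SE) had a 95% interval of -3.58 to 1.19 (edgeR adjusted p = 0.745), which takes in changes of several-fold in either direction. It was -2.41 without U1_OE replicate 1, -0.49 without control replicate 1 and -0.52 without U1_OE replicate 2. NEFM, the medium chain, had 8.17 and 6.996 estimated counts in U1_OE, against 4.63 and 4.95 in control. The groups did not overlap, by a few counts, and DESeq2 gave 0.60 ± 1.72 (SE) with no adjusted p. A difference in NEFM was not detectable at this depth. An antisense gene shares 490 exonic bases with NEFL and another shares 1706 with NEFM, and both are absent from the counted genes. Without strand information, reads from these bases cannot be assigned with certainty.

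The other neuronal filaments were also low. Alpha-internexin (INA), a filament protein made early in neurons, had 5.07 and 1.82 CPM in U1_OE, against 4.57 and 1.12 CPM in control, and NEFH, the heavy chain, had 1.68 and 1.74 CPM in U1_OE, against 1.17 and 1.73 CPM in control. Summed with NEFL and NEFM they came to 8.04 and 4.15 CPM in U1_OE, against 7.61 and 3.86 CPM in control. In both groups replicate 1 held the higher sum and replicate 2 the lower.

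**Figure D3:**
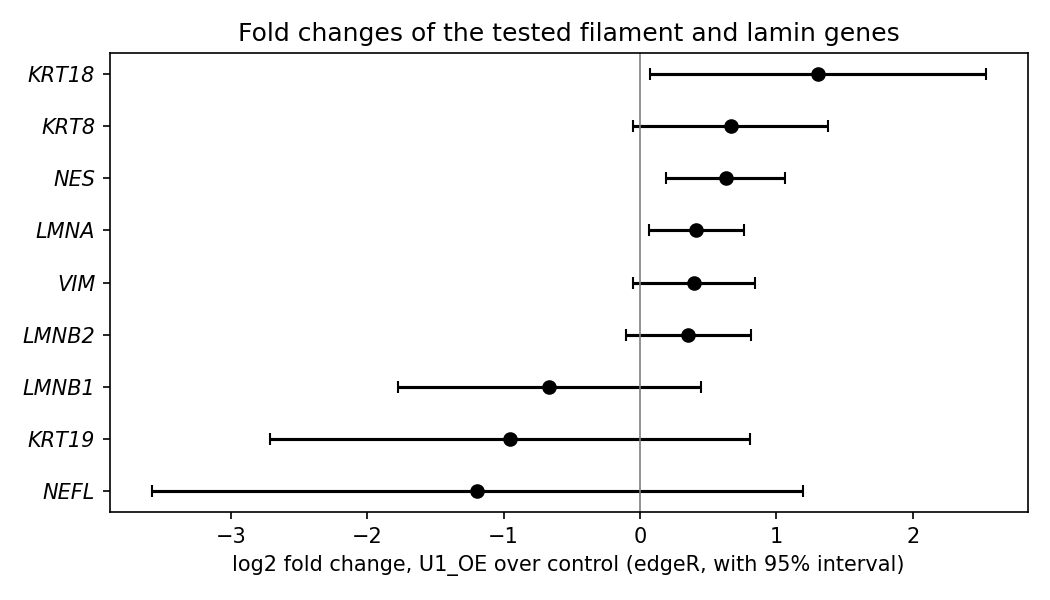
Log2 fold change of U1_OE over control for the 9 genes that could be tested, from edgeR, with points for the estimates and bars for 95% intervals. The intervals of NES, LMNA and KRT18 lie above 0 and those of the other 6 genes include 0, and after adjustment over all genes none of the 9 passed.

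Levels of different genes were compared per kilobase of annotated exon, over 28 filament, keratin and lamin genes measured in the table. VIM averaged 1010 ± 202 CPM per kb over the 4 libraries (SD), 11.3 times LMNA at 89.7 ± 15.4 CPM per kb. KRT18 followed at 74.3 ± 47.6, KRT8 at 36.3 ± 12.5, LMNB2 at 7.92 ± 1.38 and NES at 6.21 ± 1.64 CPM per kb. KRT19 came to 2.38 ± 1.65, LMNB1 to 2.08 ± 0.85, NEFL to 0.193 ± 0.132 and NEFM to 0.0808 ± 0.0249 CPM per kb.

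In that order VIM stood clear of LMNA, KRT8 of LMNB2, and LMNB1 of NEFL, with no overlap between libraries. The libraries of LMNA and KRT18 overlapped, as did those of KRT18 and KRT8, LMNB2 and NES, NES and KRT19, KRT19 and LMNB1, and NEFL and NEFM. By exon length KRT18 was above KRT8 and LMNB2 above NES within each library. By the longest transcript KRT18 was below KRT8 in control replicate 2, at 43.2 CPM per kb for KRT18 and 55.5 for KRT8. With the longest annotated transcript as the length, VIM came to 1955, LMNA to 196, KRT18 to 115 and KRT8 to 87.4 CPM per kb, and VIM stood 9.96 times above LMNA. The members held 6 of the 10 highest places by either length. Desmin (DES), the muscle filament, at 15.9 ± 6.21 CPM per kb, KRT10, an epidermal keratin, at 11.7 ± 2.10, syncoilin (SYNC), a partner of desmin, at 6.07 ± 0.96, and KRT17, a keratin of basal and wounded epithelium, at 3.52 ± 2.03 took the remaining places of the first 10 by exon length.

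**Figure D4:**
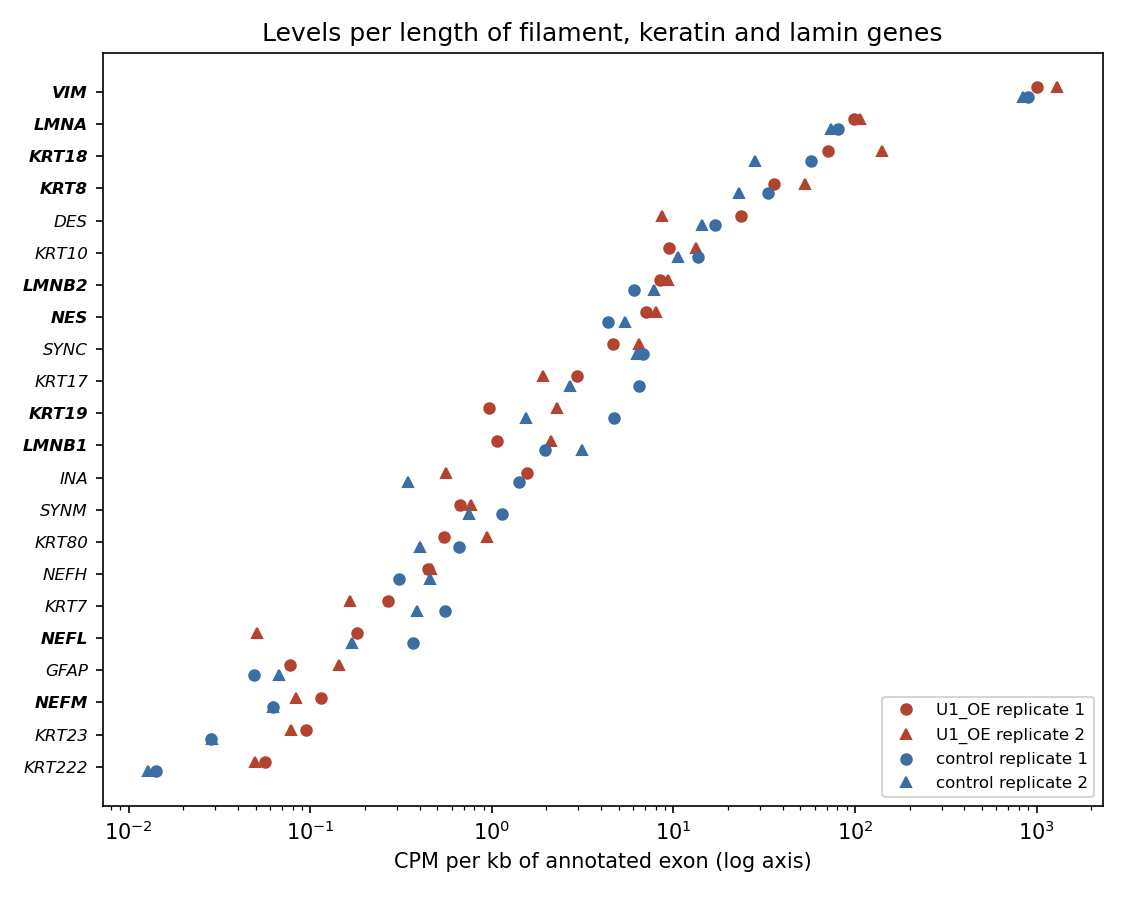
Level per kilobase of annotated exon in each library, on a log axis, for the filament, keratin and lamin genes above 0 in all 4 libraries, with the 10 genes of the report in bold. Circles and triangles are replicates 1 and 2, and the genes are ordered by their mean over 4 libraries. VIM averages 1010 CPM per kb, LMNA 89.7 and NEFM 0.0808.

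Other filament genes of the same families had fold changes of both signs. Of 7 further type III and IV filaments, 6 were tested, 4 above and 2 below 0 on the log2 scale (median 0.14). By edgeR and DESeq2 0 of them were called, and 0 reached an unadjusted edgeR p under 0.05. DES had 58.2 and 21.3 CPM in U1_OE, against 41.6 and 35.4 CPM in control, with U1_OE replicate 1 highest and U1_OE replicate 2 lowest. SYNC had 16.3 and 22.7 CPM in U1_OE, against 23.8 and 21.98 CPM in control. SYNM, synemin, which joins filaments to the membrane, had 5.25 and 6.02 CPM in U1_OE, against 8.87 and 5.88 CPM in control, a log2 fold change of -0.39 ± 0.29. GFAP, the astrocyte filament, had 0.931 and 1.73 CPM in U1_OE, against 0.596 and 0.815 CPM in control.

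Of 42 other keratins, 11 were in the table and 5 were tested, 1 above and 4 below 0 on the log2 scale (median -0.10). By edgeR and DESeq2 0 were called, and 0 had an unadjusted edgeR p under 0.05. KRT10 had 20.2 and 28.5 CPM in U1_OE, against 29.5 and 22.6 CPM in control. KRT17 had 9.23 and 6.02 CPM in U1_OE, against 20.3 and 8.49 CPM in control, with control replicate 1 highest, as for KRT19. KRT80 had 2.36 and 4.09 CPM in U1_OE, against 2.87 and 1.75 CPM in control, and KRT7, a partner keratin of glands and ducts, had 1.10 and 0.681 CPM in U1_OE, against 2.25 and 1.59 CPM in control.

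Proteins that tie filaments to junctions, actin and the membrane gave 10 positive and 7 negative log2 fold changes among the 17 tested of 21 measured (median 0.07), with 0 called by either tool. In 6 of the 17 both U1_OE libraries lay below both control libraries and in 1 above, against 22.1% and 19.7% of all tested genes. Plectin (PLEC), the main cross-linker of filaments, had 209 and 247 CPM in U1_OE, against 214 and 185 CPM in control. The related MACF1 (115 and 168 CPM in U1_OE, against 133 and 112 CPM in control) and DST (111 and 136 CPM in U1_OE, against 136 and 99.4 CPM in control) overlapped too. JUP, plakoglobin of desmosomes and adherens junctions, was the 1 gene of the list with an unadjusted edgeR p under 0.05. It had 18.5 and 21.4 CPM in U1_OE, against 30.0 and 25.4 CPM in control (log2 fold change -0.47 ± 0.17, edgeR adjusted p = 0.534). The hemidesmosome integrins that hold keratin filaments to the basement membrane were lower in both U1_OE libraries than in either control library, without passing: ITGA6 had 1.15 and 4.46 CPM in U1_OE, against 6.67 and 12.2 CPM in control, and ITGB4 had 1.09 and 1.45 CPM in U1_OE, against 9.57 and 1.64 CPM in control. The ITGB4 difference rested on control replicate 1.

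The lamins' partners at the nuclear envelope had no shared direction. All 25 of that list were tested, 13 above and 12 below 0 on the log2 scale (median 0.01), and 0 were called by either tool. Their summed level was 936 and 940 CPM in U1_OE, against 937 and 937 CPM in control. BANF1, which bridges chromatin and the envelope, had 165 and 178 CPM in U1_OE, against 186 and 170 CPM in control. SUN1, of the bridge to the cytoskeleton, had 74.4 and 76.9 CPM in U1_OE, against 92.3 and 86.6 CPM in control, and TMEM43, which binds lamins and emerin, had 90.8 and 76.1 CPM in U1_OE, against 65.8 and 64.7 CPM in control. TMPO, the gene of LAP2 proteins that bind lamins, had 10.6 and 16.2 CPM in U1_OE, against 18.1 and 23.1 CPM in control, which was the library order of LMNB1 apart from the middle pair. PSME4, a proteasome activator, was the 1 gene with an unadjusted edgeR p under 0.05, at 25.6 and 27.4 CPM in U1_OE, against 21.3 and 19.2 CPM in control.

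Among the enzymes that process lamins and filaments, 14 were tested, 7 above and 7 below 0 on the log2 scale (median 0.06), and 0 were called by either tool. ICMT, which methylates the farnesylated CaaX end printed above, had 62.8 and 51.8 CPM in U1_OE, against 39.6 and 41.5 CPM in control, a log2 fold change of 0.50 ± 0.15 (edgeR unadjusted p = 0.0228, adjusted p = 0.492). CASP6, the caspase that cuts lamin A in apoptosis, had 26.0 and 20.8 CPM in U1_OE, against 17.9 and 15.2 CPM in control (0.50 ± 0.19, edgeR adjusted p = 0.549). CDK1, the mitotic kinase that phosphorylates lamins, had 1.74 and 4.04 CPM in U1_OE, against 5.83 and 8.68 CPM in control (-1.32 ± 0.49, edgeR adjusted p = 0.534). FNTA, a subunit of farnesyltransferase, had 67.3 and 58.7 CPM in U1_OE, against 51.9 and 60.4 CPM in control, and NARF, which binds prelamin A, had 43.6 and 43.9 CPM in U1_OE, against 40.6 and 49.9 CPM in control.

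Marker lists of other cells were read beside the filaments. The 22 mesenchymal markers were above 0 on the log2 scale in 18 cases and below it in 4 (median 0.30). At an unadjusted edgeR p under 0.05, 5 were higher and 0 lower, against 4.36% and 4.72% of all tested genes. In 9 both U1_OE libraries lay above both control libraries and in 0 below, against 19.7% and 22.1% of all tested genes. The list was chosen with earlier results of these data known, so these counts are no test of it. EdgeR called 0 of them, and DESeq2 called 1, POSTN, at 273 and 230 CPM in U1_OE, against 72.4 and 142 CPM in control. Of the pan-neuronal markers, DESeq2 called TUBB3 higher (264 and 338 CPM in U1_OE, against 159 and 104 CPM in control), GAP43 higher (47.0 and 11.5 CPM in U1_OE, against 3.29 and 1.29 CPM in control) and L1CAM lower (16.6 and 19.96 CPM in U1_OE, against 57.5 and 57.3 CPM in control). It also called higher SMTN of the muscle list (47.0 and 69.7 CPM in U1_OE, against 23.7 and 29.8 CPM in control), SOX9 (17.4 and 21.3 CPM in U1_OE, against 7.15 and 8.32 CPM in control) and CD44 (188 and 275 CPM in U1_OE, against 83.5 and 87.1 CPM in control) of the astrocyte list and FLT1 of the endothelial list (16.3 and 16.7 CPM in U1_OE, against 3.80 and 2.73 CPM in control). These 8 genes came from lists with 22 mesenchymal, 17 pan-neuronal, 12 muscle, 10 astrocyte and 9 endothelial genes in the table. Over all genes DESeq2 called 0.614% higher and 0.47% lower. In edgeR the 8 genes had adjusted p-values of at least 0.459. DESeq2 called 4 to 8 of the listed genes when each library was left out in turn, with 4 without control replicate 2. The part of these cell types in the filament values was not tested.

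Across the classes, VIM, KRT8, KRT18 and LMNA shared one order of libraries, U1_OE replicate 2, U1_OE replicate 1, control replicate 1 and control replicate 2 from high to low. The share of all tested genes with that order was not counted, and 4 libraries are too few to read a shared pattern from it. KRT8 and KRT18 also have 525 exonic bases in common, so their orders may not be independent. NES and LMNB2 differed from it only in the order of the control libraries. KRT19 and NEFL had control replicate 1 highest, and LMNB1 had control replicate 2 highest. The summed level of the keratins was 479 and 823 CPM in U1_OE, against 425 and 253 CPM in control. Per 1000 VIM CPM that is 92.7 and 123 in U1_OE, against 91.6 and 58.0 in control, so on the vimentin scale the first libraries of the groups were nearly level and the second libraries were apart.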

How the data were processed

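The deposited values are estimated counts of 4 libraries, not normalised by the authors. Only 1.99% of those above 0 lie within 0.01 of a whole number, and the sources used here do not say why. Trim Galore, STAR, featureCounts, DESeq2 and hg38 appear without versions in the submitters' processing notes.

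Rounded counts went into edgeR 4.0.16 (R 4.3.3; filterByExpr, TMM scaling, quasi-likelihood test, two-sided, Benjamini-Hochberg adjustment over 17317 genes, threshold 0.05). CPM values use the unrounded counts and TMM-scaled library sizes. 1 CPM was 16.2 to 19.1 counts. SEs and 95% intervals restate the edgeR test. DESeq2 1.42.0 and limma-voom (limma 3.58.1) were alternatives, and the procedure was tested on simulated data. Annotation and sequences are from GENCODE v29 on GRCh38.

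Members and gene lists were chosen with earlier results of these data known, so no list was tested as a set. Beside the members, the text names from each filament list the 3 genes with the highest mean CPM, the 3 with the smallest edgeR p and any called gene, from marker lists called genes only, and genes that overlap a member or share its sequence where measured. Markers with no call, the desmosome genes DSP, DSG2, DSC3 and PKP1, and the other genes of the figures were named after their values were seen. One further sequence is not reported here.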

Additional observations from a re-analysis of the deposited data

How the results depend on the processing

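The edgeR count of 0 called genes became 189 with DESeq2 and 325 with the likelihood ratio test, and 0 of these were members. The DESeq2 count was 55 without control replicate 1, 62 without control replicate 2, 147 without U1_OE replicate 1 and 322 without U1_OE replicate 2. Of the genes on the lists, 0 were called by edgeR and 8 by DESeq2, which called 0.614% of all genes higher and 0.47% lower. The members called by DESeq2 numbered 0 to 1 when each library was left out: 1 without control replicate 1 (KRT18) and 1 without U1_OE replicate 1 (KRT8). Of 170 alternative values of the member fold changes, 2 changed sign, both for KRT19 without control replicate 1 (0.077 by edgeR and 0.073 by DESeq2). With each library left out its log2 fold change lay between -1.73 and 0.077, and control replicate 1 held its highest value. Of the 9 tested members, those with groups apart numbered 6 with TMM, 6 with RLE size factors and 6 with library size alone. With the replicate block edgeR called 0 genes and DESeq2 80, with 0 members in either. The deviations of same-numbered libraries from their group means had a correlation of -0.11 across genes. The numbers were not taken as pairs in the main fit, though this correlation cannot show whether the libraries were paired in the experiment. A crossed replicate block, added after the data were seen, called 0 genes. Estimates of the 9 members with each library left out are limited by the lone library, which is assumed to vary like the other group. NEFM and NEFL are limited by counts and by antisense genes across their exons. KRT8 and KRT18 are limited by shared sequence and by their overlap, and VIM and LMNB2 also overlap other genes.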
